A study of Mus musculus with 5 samples.

Results

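BRG1 binding was described at 9 genes: 7 genes of the interferon regulatory factor (IRF) family (Irf1, Irf2, Irf3, Irf4, Irf5, Irf7 and Irf9) and 2 genes of IRF2-binding proteins (Irf2bp2 and Irf2bpl), out of 21887 protein-coding genes. The genes were taken by name, and all 9 were found in the RefSeq annotation of GRCm38.p6, the assembly of mm10. A peak was assigned to a gene when its summit lay in the gene body or within 50 kb of it. BRG1 was mapped by chromatin immunoprecipitation with sequencing (ChIP-seq) in primary bone marrow-derived macrophages (BMDMs) of mice. The groups were Baf60a KO cells with oxidised low-density lipoprotein (oxLDL KO), WT cells with oxLDL (oxLDL WT), KO cells without oxLDL (KO) and WT cells without oxLDL (WT). Each group was 1 library, all 4 were precipitated with the same BRG1 antibody, and an input library without antibody was not analysed here. The sources used here do not state how the knockout was made, the age and number of the mice, or the dose and time of oxLDL. Each group having 1 library, differences between lists have no replicate check and are described without p-values.

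IRF proteins are transcription factors that recognise repeats of GAAA in DNA. IRF3 and IRF7 are activated downstream of nucleic acid sensors and Toll-like receptors and induce type I interferon genes, IRF9 takes part in the response of cells to interferon, and IRF5 drives inflammatory cytokine genes in macrophages. IRF1 activates interferon-response genes and IRF2 can oppose it, while IRF4 usually binds together with a partner such as PU.1. IRF2BP2 was identified as a corepressor that binds IRF2, and IRF2BPL is its paralogue. SWI/SNF complexes reposition nucleosomes with the energy of ATP, which their catalytic subunit BRG1 (Smarca4) splits, and BAF60a (Smarcd1) is one of their accessory subunits.

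The promoters of Irf5, Irf2 and Irf2bpl are shown first, because these were the genes of the set with a summit within 1 kb of an annotated start site in an oxLDL list. Sequences are from RefSeq on GRCm38.p6, 250 bases before to 50 after the start, 5′ to 3′ on the strand of the gene. The motifs searched on both strands were the IRF element (GAAA, any 2 bases, GAAA), the ETS-IRF composite (GGAA, any 2 bases, GAAA), the PU.1 core (GAGGAAGT), the ETS core (CGGAAG) and the AP-1 site (TGANTCA), and capitals mark their matches. The Irf5 promoter, chr6:29526375-29526674 on the plus strand, lay whole inside an oxLDL WT peak, and 150 of its 300 bases lay inside an oxLDL KO peak. The promoters of Irf2 (chr8:46739495-46739794, plus strand) and Irf2bpl (chr12:86884765-86885064, minus strand) held no base of a peak, since the nearest peaks began just inside the gene.
Irf5: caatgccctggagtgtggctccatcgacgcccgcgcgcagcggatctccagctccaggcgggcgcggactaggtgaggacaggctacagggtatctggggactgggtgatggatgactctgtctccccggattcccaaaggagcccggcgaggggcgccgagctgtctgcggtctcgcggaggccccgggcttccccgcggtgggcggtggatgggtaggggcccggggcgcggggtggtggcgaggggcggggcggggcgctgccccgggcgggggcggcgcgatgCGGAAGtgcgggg
Irf2: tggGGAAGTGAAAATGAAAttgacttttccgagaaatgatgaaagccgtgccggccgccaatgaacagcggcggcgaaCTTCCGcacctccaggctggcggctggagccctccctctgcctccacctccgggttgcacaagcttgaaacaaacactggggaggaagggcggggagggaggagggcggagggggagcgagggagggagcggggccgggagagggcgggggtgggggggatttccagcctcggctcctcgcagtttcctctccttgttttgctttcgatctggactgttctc
Irf2bpl: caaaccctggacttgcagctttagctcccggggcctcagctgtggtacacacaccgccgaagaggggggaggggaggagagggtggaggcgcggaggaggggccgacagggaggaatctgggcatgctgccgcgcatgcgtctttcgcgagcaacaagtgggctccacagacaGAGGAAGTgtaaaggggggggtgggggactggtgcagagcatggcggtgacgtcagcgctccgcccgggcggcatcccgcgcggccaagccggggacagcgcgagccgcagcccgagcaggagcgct
The Irf2 promoter held an ETS-IRF composite that began 247 bp before the start, overlapped by an IRF element that began 241 bp before it, and an ETS core on the other strand. The Irf2bpl promoter held a PU.1 core that began 77 bp before the start, and the Irf5 promoter an ETS core 38 bases into the transcript. Of the 11 promoters of the 9 genes in the table, 1 held the IRF element, 1 the composite, 1 the PU.1 core, 4 the ETS core and 0 the AP-1 site. Among 21263 promoters of protein-coding genes, the shares were 3.35%, 2.53%, 3.13%, 21.1% and 6.99%. The ETS core was added after the promoters had been seen, so its count is not a test against the share of 21.1%. A match is a description of the letters and does not show that a factor is bound.

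With all deposited peaks counted, the 9 genes had 17 peaks in oxLDL KO, 42 in oxLDL WT, 2 in KO and 0 in WT. These were 0.364% of the 4668 oxLDL KO peaks, 0.424% of the 9907 oxLDL WT peaks, 1.44% of the 139 KO peaks and 0% of the 237 WT peaks. A peak was found at 5 of the 9 genes in oxLDL KO, where 31.4% of all protein-coding genes had one. In oxLDL WT it was 9 of 9, where 45.6% of all genes had one. In KO it was 1 of 9 (1.01% of all genes) and in WT 0 of 9 (2.07% of all genes). The 9 genes were chosen with earlier results of these data known, so these counts may in part reflect that choice. The lists held no peak on X or Y, and among the 20665 genes on the autosomes, where all 9 lie, the shares were 33.2% in oxLDL KO, 48.3% in oxLDL WT, 1.06% in KO and 2.20% in WT. Irf1, Irf2, Irf5, Irf2bp2 and Irf2bpl had peaks in both oxLDL lists, as did 27.5% of all genes. Irf3, Irf4, Irf7 and Irf9 had peaks in oxLDL WT and none in oxLDL KO, as did 39.6% of all the genes that had an oxLDL WT peak. At a −log10 q of at least 5, 3 of the 17 oxLDL KO peaks were left, at Irf2 and Irf5, and 14 of the 42 oxLDL WT peaks, at 6 genes. The whole lists kept 922 of 4668 peaks in oxLDL KO and 2517 of 9907 in oxLDL WT at this limit. With the oxLDL WT list shortened by p-value to the length of the oxLDL KO list, the counts were 17 in oxLDL KO and 21 in oxLDL WT, and Irf4, Irf7 and Irf9 then had no peak in either. In the genes or within 10 kb, 4 genes had an oxLDL KO peak, without Irf2bp2, and 6 an oxLDL WT peak, without Irf3, Irf4 and Irf9. The share of all genes with a peak was not counted under these stricter settings, so these numbers of genes have no background.

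**Figure D1:**
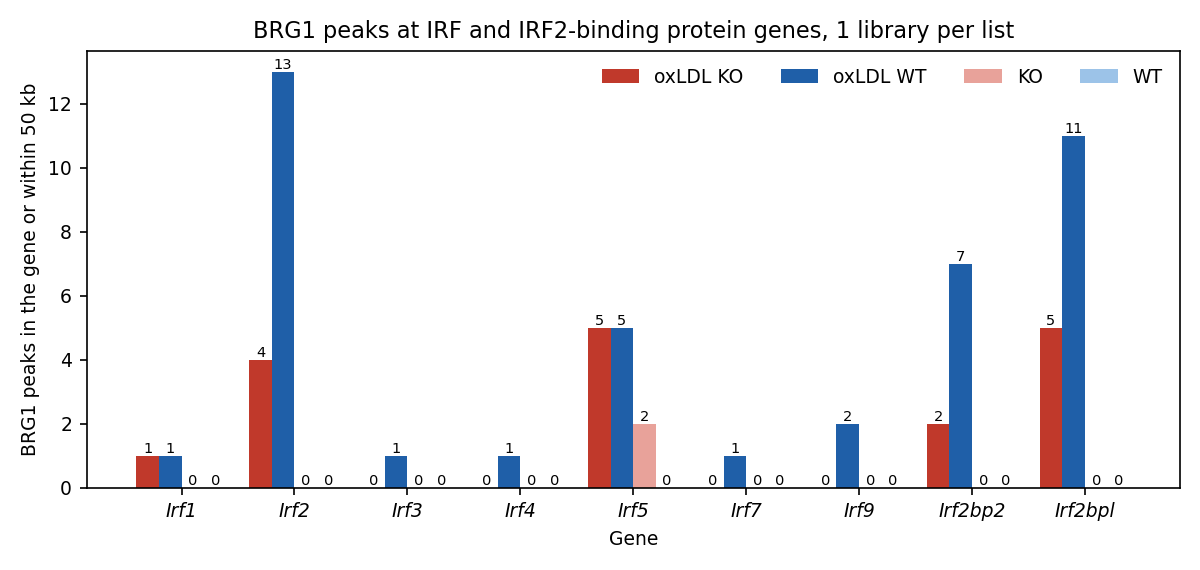
Number of BRG1 peaks (y axis) with a summit in each gene or within 50 kb of it (x axis) in the oxLDL KO, oxLDL WT, KO and WT lists, 1 library each. Irf2 has the highest oxLDL WT bar, with 13 peaks, and Irf5 has 5 peaks in each oxLDL list and the 2 KO peaks.

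Most peaks lay at 4 genes, those with the most oxLDL WT peaks. Irf2, Irf5, Irf2bp2 and Irf2bpl held 16 of the 17 oxLDL KO peaks (94.1%) and 36 of the 42 oxLDL WT peaks (85.7%). As the 4 genes are grouped by these same counts, a high share follows in part from the grouping. At least 5 peaks were found at 2 genes in oxLDL KO, Irf5 and Irf2bpl, a number reached by 1.05% of all protein-coding genes. This number is not scaled to window length, which grows with the gene. In oxLDL WT it was 4 genes, Irf2, Irf5, Irf2bp2 and Irf2bpl, against 6.23% of all genes. Summits within 1 kb of an annotated start were found at 2 of the 9 genes in oxLDL KO (Irf5 and Irf2bpl) and at 3 in oxLDL WT (Irf2, Irf5 and Irf2bpl). The shares among the 17492 protein-coding genes with a promoter entry were 9.84% in oxLDL KO and 16.3% in oxLDL WT. The oxLDL KO peaks lay in the gene body in 9 cases, upstream in 2 and downstream in 6, and the oxLDL WT peaks in 14, 12 and 16 cases.

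Peaks of the 2 oxLDL lists were matched when they shared at least 1 bp. Of the 17 oxLDL KO peaks, 14 had an oxLDL WT match (82.4%, Wilson 95% interval 59.0 to 93.8), against 59.6% of all oxLDL KO peaks. Of the 42 oxLDL WT peaks, 13 had an oxLDL KO match (31.0%, interval 19.1 to 46.0), against 27.3% of all oxLDL WT peaks. The intervals cover counting error only and treat peaks as independent, although many lie close together at the same gene. Each interval holds the share of the whole list. Merging overlapping peaks gave 45 sites: 29 in oxLDL WT alone, 3 in oxLDL KO alone, 11 in both oxLDL lists, and 2 in both oxLDL lists and KO. At the 13 sites shared under oxLDL the closest summits of the oxLDL KO and oxLDL WT lists were 4 to 580 bp apart, with a median of 123 bp, and 7 of the 13 were within 200 bp. With a summit distance of up to 200 bp as the rule, the matched shares were 41.2% of the oxLDL KO peaks and 16.7% of the oxLDL WT peaks. The shares of the whole lists were not computed under this rule, so these values cannot be set against all peaks.

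Fold enrichment, the ratio of a peak to the local background its caller used, was deposited by the authors and serves here to describe and rank the peaks of 1 list. Whether that background came from the same library or from the input is not stated. It ran from 2.69 to 6.56 in oxLDL KO, with a median of 3.85, the same as for that whole list, and from 2.68 to 5.67 in oxLDL WT, with a median of 3.67 against 3.75 for the list. The fragment pileup behind each peak, solved from its fold enrichment and −log10 p, was 13 to 28 in oxLDL KO (median 16), 12 to 26 in oxLDL WT (median 17.5) and 18 at both KO peaks. A peak at these genes thus rested on few fragments, near the list medians of 17 in oxLDL KO and 17 in oxLDL WT and below the 22 of KO. Background in a list went down to 3.42 fragments in oxLDL KO, 3.76 in oxLDL WT, 3.84 in KO and 2.70 in WT. Local background at the peaks of the 9 genes was at most 2.02 times the lowest of its list.

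**Figure D2:**
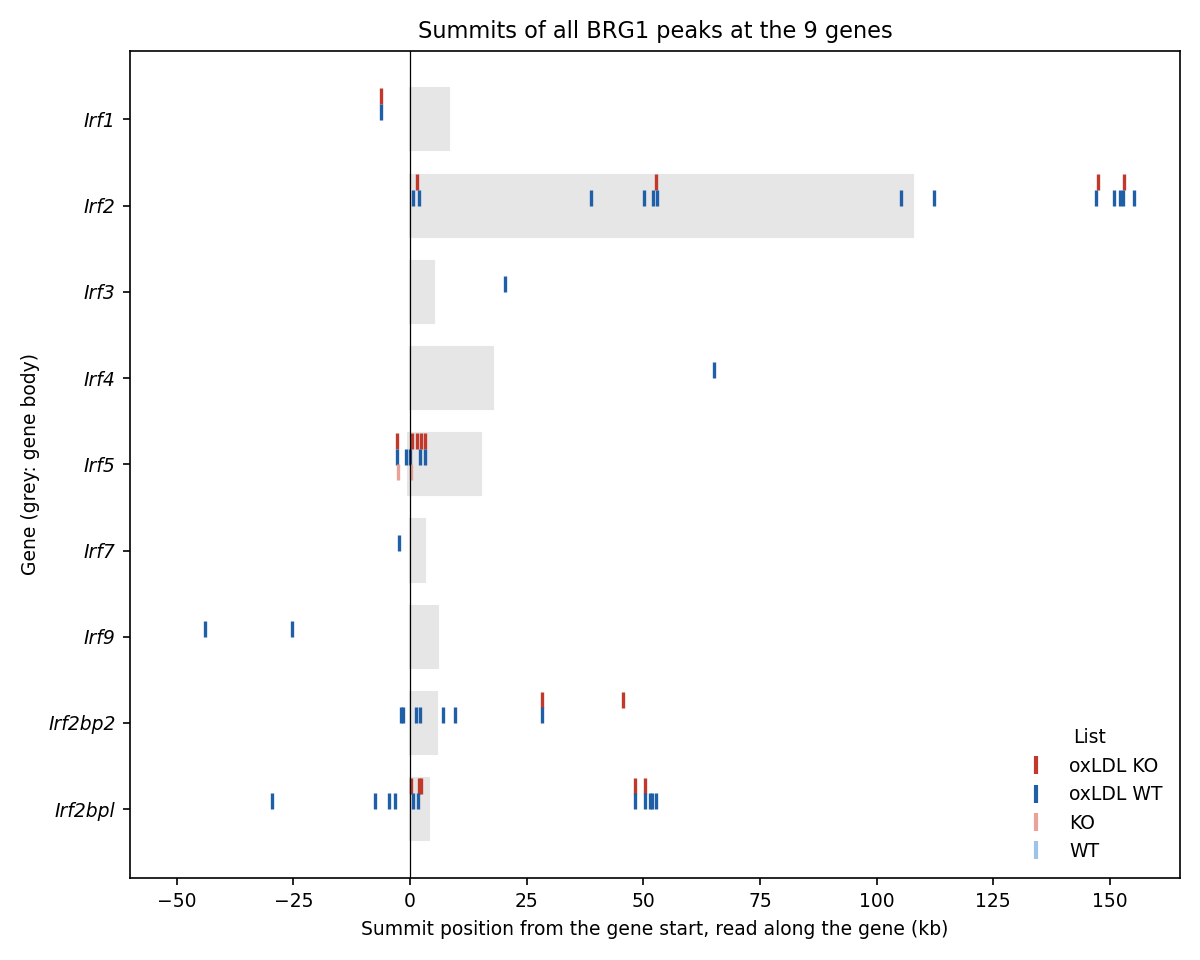
Distance of each summit from the gene start in kb, read along the gene (x axis), for the 9 genes (rows, grey for the gene body), with a row of ticks for each list in the order oxLDL KO, oxLDL WT, KO and WT. Summits at Irf5 sit close to the start in 3 lists, while those of Irf2 run over the gene and past its end.

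Irf5 (chromosome 6, 29526130 to 29541869, plus strand) was the gene of the set with peaks in 3 lists. It had 5 peaks in oxLDL KO, 5 in oxLDL WT, 2 in KO and 0 in WT, where the nearest WT summit was over 200 kb away. All 12 peaks lay within 6.53 kb, and for each of them the Irf5 start at 29526625 was the nearest start of a protein-coding gene. The site farthest upstream had summits at 29523910 in oxLDL KO, 29523876 in oxLDL WT and 29523964 in KO, 2715, 2749 and 2661 bp before the start. Its fold enrichment was 6.56 in oxLDL KO, from a pileup of 28 fragments, 3.99 in oxLDL WT, from 18, and 3.48 in KO, from 18. The oxLDL KO value stood at percentile 99.1 of its list and was the highest of that list at the 9 genes, while the oxLDL WT value stood at percentile 64.9 and the KO value at percentile 46.8. The oxLDL WT peak of this site was also the widest of the set, 1316 bp, against 574 bp in oxLDL KO and 227 bp in KO.

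At the start of Irf5, a second site was again found in 3 lists. Its summits lay 328 bp after the start in oxLDL KO (fold enrichment 4.07, 17 fragments), 102 bp before it in oxLDL WT (4.62, 21 fragments) and 192 bp after it in KO (3.79, 18 fragments). Between these sites, oxLDL WT alone had a 300 bp peak with a summit 931 bp before the start (3.55), and the nearest oxLDL KO summit was 1259 bp away. Inside the gene, 2 oxLDL KO peaks, 1497 and 2293 bp after the start (4.98 and 3.69), overlapped a single 1042 bp oxLDL WT peak with its summit at 2045 bp (4.41). The last site had summits 3281 bp after the start in oxLDL KO (3.61) and 3169 bp after it in oxLDL WT (4.41). All 5 oxLDL KO peaks and 4 of the 5 oxLDL WT peaks were therefore matched in the other oxLDL list, and both KO peaks were matched in both oxLDL lists. Without oxLDL, the KO list as deposited thus had peaks at the upstream site and at the start, and the WT list had none. These KO peaks were weak, with a −log10 q of 1.94 at the upstream site and 2.48 at the start. A limit of 2 would drop the upstream KO peak, and a limit of 5 would drop both. The contrast between KO and WT without oxLDL therefore depends on keeping peaks of low −log10 q. Equal numbers at Irf5 stood beside an oxLDL KO list shorter than the oxLDL WT list.

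**Figure D3:**
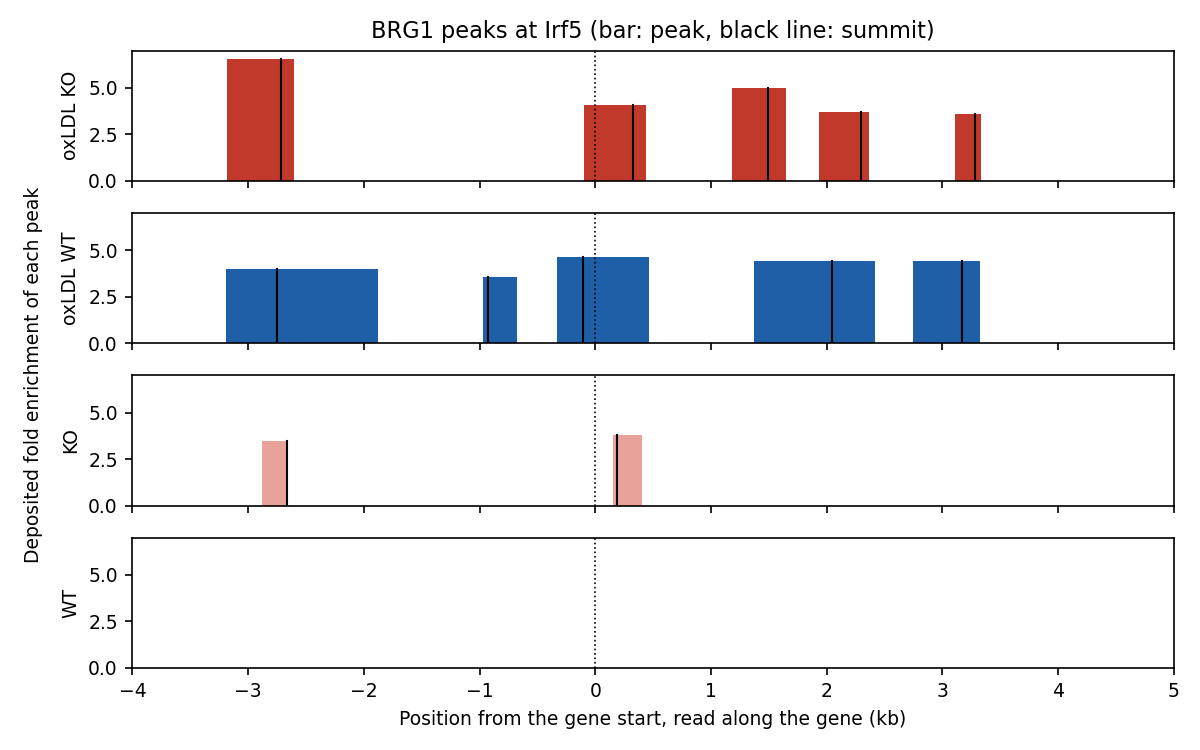
BRG1 peaks at Irf5 in the oxLDL KO, oxLDL WT, KO and WT lists (panels, top to bottom), drawn to scale from their first to last base against the distance from the gene start in kb (x axis), with height equal to the deposited fold enrichment (y axis) and a black line at the summit. With all deposited peaks drawn, the upstream site and the start site are present in 3 lists. The tallest bar is the upstream peak of oxLDL KO at 6.56.

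Irf2 (chromosome 8, 46739745 to 46847458, plus strand), the longest gene of the set at 108 kb, had 13 oxLDL WT peaks and 4 oxLDL KO peaks, and none in KO or WT. As many oxLDL WT peaks or more were found at 18 protein-coding genes (0.0822%), and as many oxLDL KO peaks or more at 503 (2.30%). Its window was 208 kb, against a median of 117 kb over all genes, and per 100 kb it held 1.93 oxLDL KO and 6.26 oxLDL WT peaks, where the means over all genes were 0.401 in oxLDL KO and 0.864 in oxLDL WT. No other protein-coding gene lay in the window.

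Near the start of Irf2, the peaks of the 2 genotypes under oxLDL were offset. The oxLDL KO peak had its summit 1440 bp after the start, with a fold enrichment of 4.94, 24 fragments and percentile 88.8 of its list. The oxLDL WT list had a peak 601 bp after the start (4.33, 20 fragments), which no oxLDL KO peak overlapped, and a lower one at 1825 bp (3.35, 18 fragments), which overlapped the oxLDL KO peak with summits 385 bp apart. Deeper in the gene, oxLDL WT had a peak 38818 bp after the start (4.31) and a group of 3 between 50240 and 52888 bp, with values of 2.84, 2.68 and 3.96. Of this group the last, the highest, was matched by an oxLDL KO peak at 52808 bp with a value of 2.69. Near the end of the gene, at 105165 bp, lay a 1103 bp oxLDL WT peak (4.41) with no oxLDL KO match, and another oxLDL WT peak (3.36) lay 4625 bp past the end.

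A further group lay 39 to 47 kb past the end of Irf2, in 8.93 kb between 46886237 and 46895163. It held 5 oxLDL WT peaks with values of 4.41, 4.41, 3.15, 3.19 and 3.19 and 2 oxLDL KO peaks with values of 3.85 and 4.07. The second oxLDL KO peak overlapped an oxLDL WT peak, with summits at 46892850 in oxLDL KO and 46892643 in oxLDL WT. The first had its summit at 46887238, 519 bp from the nearest oxLDL WT summit, and did not overlap that peak. The nearest start of a protein-coding gene was that of Enpp6, 91945 to 100168 bp away, while the start of Irf2 was 146974 to 155197 bp away. The end of Irf2 was 39261 to 47484 bp away.

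By number of peaks in the 4 lists, genes among the most like Irf2 were Nfkbil1 and Cd300c. Each had 4 in oxLDL KO, 13 in oxLDL WT and 0 in KO and WT. Slc43a2 and Atp6v1g2 followed, each with 4 in oxLDL KO and 12 in oxLDL WT, for a summed difference of 1 peak over the 4 lists. The choice is not complete, since the macrophage gene Mpeg1 was equally close, with 3 in oxLDL KO, 13 in oxLDL WT and 0 in KO and WT. Nfkbil1 and Atp6v1g2 overlap each other, so their windows share peaks. Likeness here is in peak number alone, over 4 lists.

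Irf2bpl (chromosome 12, 86880703 to 86884814, minus strand) had 5 oxLDL KO and 11 oxLDL WT peaks and none in KO or WT. Per 100 kb these were 4.80 in oxLDL KO and 10.6 in oxLDL WT, and the oxLDL WT density was the highest of the 9 genes. At the start, oxLDL KO had a peak with its summit 146 bp into the gene (3.40, 15 fragments) and oxLDL WT one with its summit at 726 bp (4.62, 21 fragments). The oxLDL KO peak, 827 bp wide, lay whole inside the oxLDL WT peak of 901 bp. A second shared site had summits 1984 bp into the gene in oxLDL KO (3.39) and 1610 bp in oxLDL WT (2.94). The highest oxLDL KO value at the gene, 4.53 with 19 fragments, belonged to a peak at 2432 bp that oxLDL WT did not have, the nearest oxLDL WT summit being 822 bp away. Upstream of the start there were 4 oxLDL WT peaks, at 3150, 4449, 7533 and 29600 bp, with values of 4.41, 3.34, 4.14 and 3.78, and no oxLDL KO peak.

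Far downstream of Irf2bpl, 44 to 49 kb past its end, a group of 5 oxLDL WT peaks lay in 4.69 kb between 86831997 and 86836682. Its main peak, with its summit at 86834355, had a fold enrichment of 5.67 from 26 fragments, percentile 96.1 of the list and the highest oxLDL WT value at the 9 genes. The oxLDL KO list had a match at 86834478, 123 bp away, with 4.07. The neighbouring oxLDL WT peak at 86836598 (4.20) was matched at 86836537 in oxLDL KO (3.39). The other 3 oxLDL WT peaks, with values of 3.36, 3.15 and 2.73, were not matched. More peaks lay just outside the 50 kb limit, with summits at 86824720 in oxLDL KO (4.03) and 86824767 in oxLDL WT (3.34). No other protein-coding gene lay in the window of Irf2bpl.

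Irf2bp2 (chromosome 8, 126588296 to 126593986, minus strand) had 2 oxLDL KO and 7 oxLDL WT peaks and none in KO or WT. In oxLDL WT, 6 peaks surrounded the gene: 2 upstream, 1428 and 2045 bp before the start (3.57 and 3.14), 2 inside, at 1206 and 2192 bp (3.78 and 3.55), and 2 past its end, by 1375 and 3974 bp (2.94 and 4.17). None of the 6 had an oxLDL KO match, and the nearest oxLDL KO summits were 18591 to 30300 bp away. Of all oxLDL WT peaks, 27.3% had an oxLDL KO match. The 6 peaks had a −log10 q of 1.45 to 4.59, so a limit of 5 would drop them all. With the oxLDL WT list shortened to the length of the oxLDL KO list, 3 of the 7 oxLDL WT peaks of the gene were left. The peak 2045 bp upstream rested on 26 fragments over a local background 2.02 times the lowest of the list, so its fold enrichment was low for its pileup. The oxLDL KO peaks lay far downstream. One, 22565 bp past the end (3.17, 13 fragments), was matched by the highest oxLDL WT peak of the gene (4.83, 22 fragments), with summits 43 bp apart. The other, 39890 bp past the end (3.62, 15 fragments), had no oxLDL WT peak within 11 kb. The 9 peaks all had the start of Irf2bp2 as their nearest start.

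**Figure D4:**
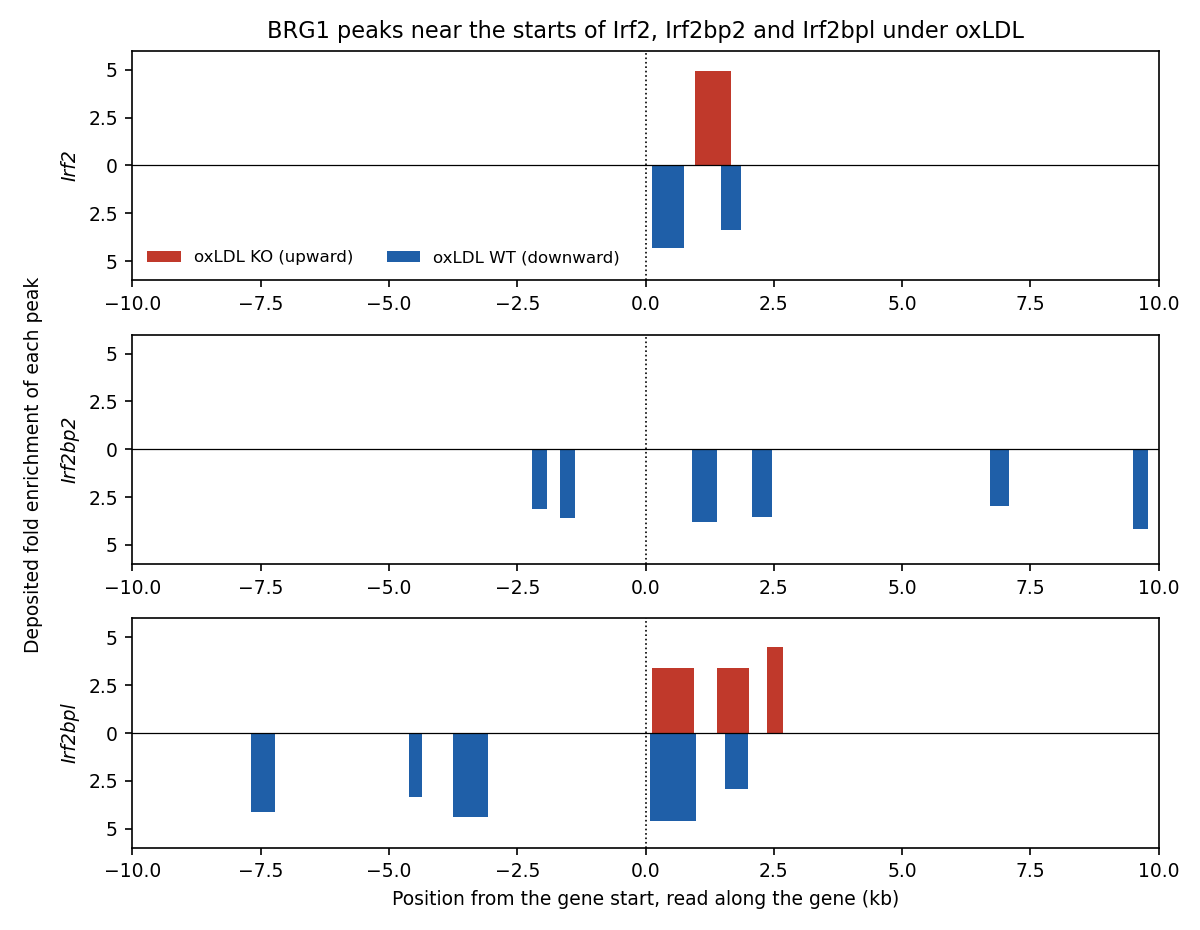
BRG1 peaks within 10 kb of the starts of Irf2, Irf2bp2 and Irf2bpl (panels), against distance from the start in kb (x axis), with the deposited fold enrichment drawn upward for oxLDL KO and downward for oxLDL WT (y axis, both from 0). With all deposited peaks drawn, Irf2bp2 has bars in oxLDL WT alone, and at Irf2 and Irf2bpl the bars overlap in part.

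The other 5 genes had 1 oxLDL KO peak and 6 oxLDL WT peaks between them. Irf1 (chromosome 11, 53770014 to 53778374, plus strand) had a single site, 6180 bp before its start in oxLDL KO and 6176 bp in oxLDL WT. Its summits were at 53763834 in oxLDL KO (3.85, 16 fragments) and 53763838 in oxLDL WT (4.41, 20 fragments), 4 bp apart, the closest pair of the set. Neither of its start sites had a peak within 1 kb in any of the 4 lists. Irf7 (chromosome 7, 141263183 to 141266499, minus strand) had 1 oxLDL WT peak, 2412 bp before its start (3.57, 16 fragments), and the nearest oxLDL KO summit was 75051 bp away. Irf4 (chromosome 13, 30749233 to 30766981, plus strand) had 1 weak oxLDL WT peak (3.15, 14 fragments) 47434 bp past its end, inside the exocyst subunit gene Exoc2. An oxLDL KO summit lay just outside the limit, 52.8 kb from Irf4, with 3.62.

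At Irf3 and Irf9, the assigned peaks lay at starts of other genes. Irf3 (chromosome 7, 44997648 to 45002848, plus strand) had 1 oxLDL WT peak, 15249 bp past its end, with 4.60 from 23 fragments. It lay 155 bp from the start of Rras, which encodes a Ras-related GTPase. Irf9 (chromosome 14, 55603985 to 55610030, plus strand) had 2 oxLDL WT peaks, 25404 and 43863 bp upstream (3.57 and 3.15). They lay 87 bp from the start of Psme1, which encodes a subunit of the proteasome activator PA28, and 93 bp from the start of Dcaf11. Over the whole set, the nearest start was that of the assigned gene for 15 of the 17 oxLDL KO peaks, 34 of the 42 oxLDL WT peaks and both KO peaks. A peak within 50 kb does not show that it acts on the gene.

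The pathway around these factors was described with the same window, in which 31.4% of all protein-coding genes had an oxLDL KO peak, 45.6% an oxLDL WT peak, 1.01% a KO peak and 2.07% a WT peak. Of 18 genes for sensors, adaptors and kinases upstream of the factors, 8 had a peak in oxLDL KO and 14 in oxLDL WT, with 0 in KO and 1 in WT. Tlr7 and Irak1 of this list lie on X, where no list had a peak. Ticam1, which encodes the adaptor TRIF, led in both oxLDL lists with a highest fold enrichment of 7.24 in oxLDL KO and 7.56 in oxLDL WT, about 3 kb outside the gene. The highest peaks of the 2 oxLDL lists at a gene need not be the same site. The kinase gene Tbk1 had 4.98 in oxLDL KO, inside the gene, and 4.62 in oxLDL WT, 39.4 kb outside it. The adaptor gene Mavs had no oxLDL KO peak and 6.09 in oxLDL WT, 29.4 kb outside the gene. Myd88, an adaptor gene too, had 5.20 in oxLDL KO, inside the gene, and 3.99 in oxLDL WT, 1.26 kb outside it. The receptor gene Tlr9 had 4.53 in oxLDL KO, 20.9 kb outside the gene, and 6.51 in oxLDL WT, 18.1 kb outside. Of 9 interferon receptor and JAK-STAT genes, 5 had a peak in oxLDL KO and 8 in oxLDL WT, with 0 in KO and 2 in WT. Ifnar1 and Ifngr2 shared their highest peak, 11.3 in oxLDL KO and 14.7 in oxLDL WT, and also the 1 WT peak. In both oxLDL lists that highest peak lay 12 kb outside Ifnar1 and 24.6 kb outside Ifngr2. Jak1 had 4.53 in oxLDL KO, inside the gene, and 3.57 in oxLDL WT, 27.1 kb outside it. Ifngr1 had no oxLDL KO peak and 6.09 in oxLDL WT, 21.2 kb outside the gene. Of 17 interferon and interferon-stimulated genes, 6 had a peak in oxLDL KO, near the share of all genes, and 11 in oxLDL WT, with 0 in KO and 2 in WT. Neighbouring genes can share a peak, so the genes of a list are not independent of each other. These lists were also chosen with earlier results of these data known. Tap1 and Psmb9 shared a highest peak (6.11 in oxLDL KO and 5.67 in oxLDL WT) and the 1 WT peak. That highest peak lay 44.6 kb from Tap1 and 39.1 kb from Psmb9 in oxLDL KO, and 44.8 and 39.2 kb in oxLDL WT. Ifit2 had 3.39 in oxLDL KO, 28.5 kb outside the gene, and 4.62 in oxLDL WT, 31 kb outside. Bst2 had 4.30 in oxLDL KO, 6.44 kb outside the gene, and 3.99 in oxLDL WT, 41.5 kb outside. These 3 lists had medians of 0, 1 and 0 peaks per gene in oxLDL KO and of 2, 4 and 1 in oxLDL WT. The 9 genes described above had medians of 1 in oxLDL KO and 2 in oxLDL WT, and the median over all genes was 0 in both.

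As a check of the cell type, 9 of 10 macrophage genes had a peak in the window in oxLDL KO and 10 of 10 in oxLDL WT, against 31.4% of all genes in oxLDL KO and 45.6% in oxLDL WT. Of 8 genes of T cells, B cells, neutrophils and fibroblasts, 3 had one in oxLDL KO and 5 in oxLDL WT, also above those shares. Since expression is not measured by a peak list, it cannot show which cells the cultures held.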

How the data were processed

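BRG1 ChIP-seq peak lists of 4 libraries were used, 1 each for oxLDL KO, oxLDL WT, KO and WT, with groups taken from the sample titles. Chromatin was cut enzymatically, and the libraries were sequenced as paired ends, per the labels' protocols. Tools named in the submitters' processing notes are MACS3, Bowtie2, Trimmomatic 0.33 and bcl2fastq 2.17, and the build is mm10. The sources used here give no parameters and do not say whether the input served as control. The authors deposited 1 list per library, with a fold enrichment ratio, −log10 p and −log10 q per peak, used as deposited, and the summit offset from the peak start. Positions are 1-based. Read totals are not known. The lowest −log10 q was 1.01 in oxLDL KO, 1.01 in oxLDL WT, 1.07 in KO and 1.02 in WT.

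Python 3.11.15, pandas 2.3.3 and scipy 1.17.1 were used. Pileup and background were solved from fold enrichment = (pileup + 1)/(background + 1) and the Poisson tail. The pileup was whole, within 2% of the step between neighbouring pileups, for all 61 peaks at the 9 genes, and for 87.77% (KO) to 99.83% (oxLDL WT) of a whole list. Genes and start sites came from RefSeq on GRCm38.p6. A promoter entry gives its start site with strand, and where a gene had several, distances were taken from the outermost. Peaks lay on chromosomes 1 to 19, and shares over all genes include those on X and Y, which had none. The steps were tested on simulated peaks. The members and lists were chosen with earlier results of these data known, and the ETS core was added after the promoters had been seen. Every peak of the 9 genes is described. Pathway genes are named where their highest fold enrichment is among the first 3 of their list in an oxLDL library. The genes named as like Irf2, the member with the most peaks, were chosen by a small summed difference in peak number. Genes with an equal difference were not all named.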

Additional observations from a re-analysis of the deposited data

How the results depend on the processing

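With peaks kept from a −log10 q of 5, the 9 genes had 3 oxLDL KO peaks at 2 genes and 14 oxLDL WT peaks, with matched shares of 33.3% in oxLDL KO and 7.14% in oxLDL WT. In the genes or within 10 kb there were 11 oxLDL KO peaks at 4 genes and 26 oxLDL WT peaks at 6 genes. In the genes or within 1 kb there were 9 at 3 genes in oxLDL KO and 15 at 4 genes in oxLDL WT, of which 46.7% were matched. With the oxLDL WT list shortened to the length of the oxLDL KO list, 21 oxLDL WT peaks were left, 47.6% of them matched. With summits within 200 bp as the match, the shares were 41.2% in oxLDL KO and 16.7% in oxLDL WT. Each of these settings keeps fewer peaks or accepts fewer matches by construction. Matched shares of the whole lists were not computed under these settings, so the shares given here cannot be set against all peaks. The total counts, numbers of genes and matched shares stayed within 1.5 times the reported count or within the interval of the reported share at a −log10 q of at least 2 and at a common −log10 p of 5.33, as did the shares when 50% of the shorter peak had to be shared. Of 79 counts for single genes that could change under an alternative, 35 stayed within 1.5 times. None was higher, since each setting can only remove peaks. At a −log10 q of 2 and at the common −log10 p, the Irf4 peak was lost, and 1 peak each was left at Irf9 in oxLDL WT and at Irf2bp2 in oxLDL KO. No paired analysis was possible because each group is 1 library. The precision is limited by pileups of 12 to 28 fragments per peak and by 1 library per group.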
